A study of Kluyveromyces marxianus with 6 samples.

Results

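In *K. marxianus*, a glyceraldehyde-3-phosphate dehydrogenase gene (*GAPDH*) and an alcohol dehydrogenase gene (*ADH*) were neighbours on contig-114 of the genome assembly (contigs are named here by the last digits of their identifiers), and both strands of both genes were transcribed. The locus consisted of 4 of the 14298 transfrags, the transfrag being the unit into which overlapping and adjacent reads of a strand were joined. They were picked out by position and annotation, with earlier results on their levels known: transfrag29060 (*GAPDH* sense), transfrag26943 (*GAPDH* antisense), transfrag26945 (*ADH* sense) and transfrag29061 (*ADH* antisense). Both sense transfrags belonged to the 5785 mRNAs and both antisense transfrags to the 3067 long antisense ncRNAs (lancRNAs).

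The strain ATCC 36907 (KM7) was grown in glucose medium that lacked uracil. Cells were collected early (EE), midway (ME) and late (LE) in exponential growth, at an optical density of about 3, 7 and 10. Ribosomal RNA was removed, and strand-specific sequencing gave 6 libraries, 2 biological replicates per growth phase. The groups differ in growth phase alone as far as the labels say, and every library came from the same strain. The deposited level of a transfrag is 1 normalized read signal per growth phase, the authors' mean over both libraries. It is not scaled by transfrag length. No replicate spread could be computed and no test between growth phases was made, so each error given here covers counting of reads only. An estimated 4411691, 10955690 and 13759220 reads lay behind the levels of EE, ME and LE, which makes EE the least precise phase. These are fewer than the mapped reads that the study reported, and they are the smallest share of them in EE. The reason was not examined. In a culture, fewer cells that transcribe a strand and fewer transcripts per cell cannot be told apart.

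GAPDH oxidises glyceraldehyde-3-phosphate in the lower part of glycolysis and reduces NAD+ to NADH. ADH reduces acetaldehyde to ethanol and oxidises NADH again, so that in fermenting yeast both enzymes act on the same cofactor. Antisense transcripts lie opposite a gene on the other DNA strand, and in *S. cerevisiae* many of them start from the region upstream of a neighbouring gene or run on past the end of one. In the reference genome of another *K. marxianus* strain (assembly Kmar_1.0), a *GAP1* entry stands directly before *ADH2*, with *CHS1* on its other side. Another entry of the same name has other neighbours there, and so has a *TDH2* entry, which stands next to *MHO1*. Which of these entries encode GAPDH, and on which strand they lie, was not checked.

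In order to see how both strands line up, the positions were compared first. The *GAPDH* sense transfrag29060 lay on the minus strand from 520768 to 522444 (1677 bp) and the *ADH* sense transfrag26945 on the plus strand from 524646 to 525946 (1301 bp). The genes were therefore divergent, with their 5′ ends facing each other across 2201 bases. On the plus strand, the *GAPDH* antisense transfrag26943 ran from 521295 to 522284 (990 bp) in the direction of *ADH*. On the minus strand, the *ADH* antisense transfrag29061 ran from 525816 down to 522508 (3309 bp) in the direction of *GAPDH*. Each antisense transfrag thus preceded the sense transfrag of the other gene on the same strand. The positions are those of the deposited annotation on the authors' contigs.

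**Figure D1:**
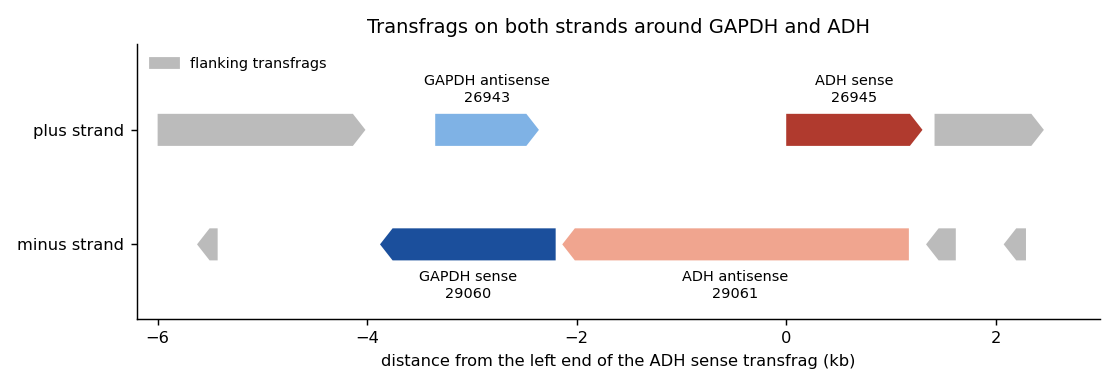
Positions of the transfrags around *GAPDH* and *ADH*, drawn to scale as the distance from the left end of the *ADH* sense transfrag in kb, plus strand above and minus strand below. Arrowheads give the direction of transcription, colours mark the 4 transfrags of the locus and grey marks flanking transfrags. The *ADH* antisense transfrag fills 97.1% of the space between the genes and stops 63 bases short of the *GAPDH* sense transfrag.

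The antisense transfrags differed in how they were placed. The *GAPDH* antisense transfrag26943 lay wholly inside the gene. It covered 59.0% of the *GAPDH* sense transfrag and left 160 bases at its 5′ end and 527 bases at its 3′ end without an antisense transfrag analysed here. It stopped 2361 bases before the *ADH* sense transfrag, and no plus-strand transfrag analysed here lay between them. The numbering of the transfrags skips an ID on either side of transfrag26943, and those IDs were not analysed here.

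The *ADH* antisense transfrag29061 began inside *ADH*, 130 bases from the 3′ end of the sense transfrag, and lay opposite 90.0% of it over 1171 bases. It then continued for 2138 bases, or 64.6% of its own length, through the space between the genes, and ended 63 bases before the first base of the *GAPDH* sense transfrag on the same strand. The antisense transfrags of both genes did not overlap each other, as 223 bases lay between their 3′ ends. The authors divided transfrags at gene boundaries and discarded low levels, so ends of transfrags need not be ends of transcripts. Among the 3067 lancRNAs, 6 were at least as long as transfrag29061, itself included. It was the 1 lancRNA that was followed by an mRNA on its own strand within 63 bases, and 8 lancRNAs were followed by one within 100 bases. Over all classes, 520 transfrags were followed on the same strand within 63 bases and 1019 within 100 bases. The authors had merged some transfrags that lay close together, and how this bears on these counts was not tested.

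A level is given for a whole transfrag. The signal of transfrag29061 opposite *ADH* and its signal in the space upstream of *GAPDH* therefore cannot be told apart, nor can a single transcript be told apart from several that were joined.

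Next, the levels of both strands were compared in each growth phase. In EE, ME and LE, the level of the *GAPDH* sense transfrag29060 was 19203, 13292 and 16338. That of its antisense transfrag26943 was 8730, 21486 and 43615. The sense strand of *GAPDH* was thus higher in EE, and the antisense strand was higher in ME and LE. The antisense level was 45.5%, 162% and 267% of the sense level, and its share of both strands together was 31.3%, 61.8% and 72.7%.

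At *ADH* the sense strand was higher in all 3 growth phases. The level of the sense transfrag26945 was 119908, 30929 and 47265, and that of the antisense transfrag29061 was 228, 5564 and 6876. The antisense level was 0.190%, 18.0% and 14.5% of the sense level. Counting error was 6.69% of the level (SD) for transfrag29061 in EE, and between 0.270% and 1.08% for all other levels of the 4 transfrags.

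**Figure D2:**
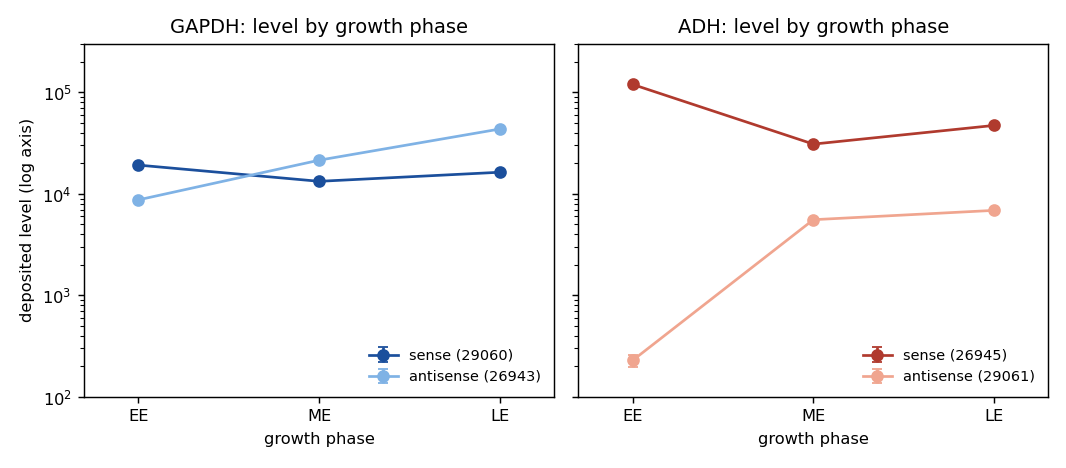
Deposited level (log axis) of the sense and the antisense transfrag of *GAPDH* and of *ADH* in EE, ME and LE. Each point is the authors' mean over 2 libraries and bars are 95% counting intervals, mostly smaller than the points; the *GAPDH* lines cross between EE (19203 sense, 8730 antisense) and ME (13292 and 21486), while the *ADH* lines stay apart.

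Both lancRNAs were among the highest of their class. The *GAPDH* antisense transfrag26943 ranked 2, 4 and 3 of 3067 lancRNAs in EE, ME and LE, and held 5.79%, 6.65% and 11.1% of the summed level of all lancRNAs. The *ADH* antisense transfrag29061 ranked 78, 8 and 5 and held 0.151%, 1.72% and 1.76% of that sum. Of all 14298 transfrags, the *ADH* sense transfrag26945 ranked 5 in EE and 10 in ME and in LE, and the *GAPDH* sense transfrag29060 ranked 27, 31 and 39.

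Scaled by length, the order of the 4 transfrags changed between growth phases. In EE the level per kb was 92166 for *ADH* sense, 11451 for *GAPDH* sense, 8818 for *GAPDH* antisense and 68.9 for *ADH* antisense. In LE it was 44056 for *GAPDH* antisense, 36330 for *ADH* sense, 9742 for *GAPDH* sense and 2078 for *ADH* antisense. In ME, *ADH* sense (23773) and *GAPDH* antisense (21703) lay close together, above *GAPDH* sense (7926) and *ADH* antisense (1681). The highest level per kb of the locus was therefore that of the *ADH* mRNA in EE and ME and that of the *GAPDH* lancRNA in LE. All neighbours in these orders differed by more than their 95% counting intervals, and the replicate spread is not known.

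**Figure D3:**
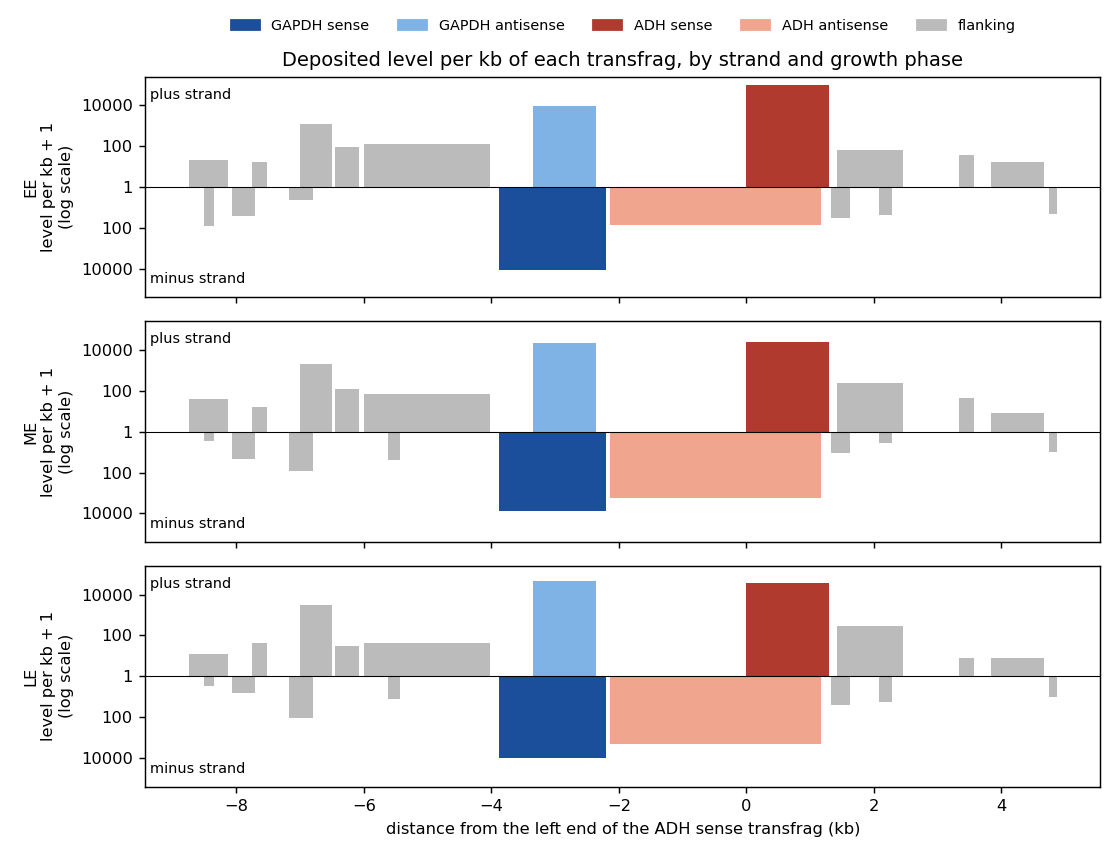
Level per kb plus 1 (log scale) of the 19 transfrags in and around the locus in EE, ME and LE, plotted against the distance from the left end of the *ADH* sense transfrag in kb, plus strand upwards and minus strand downwards. Each bar spans 1 transfrag, and the *ADH* antisense bar is at 68.9, 1681 and 2078 per kb while the flanking transfrag26939 is at 1263, 1973 and 3044; the *GAPDH* bars and the *ADH* sense bar are above all flanking bars in each growth phase.

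The 4 transfrags differed in how far their levels lay apart between growth phases. Ratios are of the level plus 1 and are given as log2 changes with the deposited scaling. Scaling by mapped reads instead adds about 1.27 to a log2 change in ME and 0.73 to one in LE. The *ADH* antisense transfrag29061 was 24.4-fold and 30.2-fold higher in ME and LE than in EE, log2 changes of 4.60 and 4.91 with a counting SE of 0.097 each. The *GAPDH* antisense transfrag26943 was 2.46-fold higher in ME and 5.00-fold higher in LE, log2 changes of 1.30 and 2.32 with a counting SE of 0.017 and 0.016. Both lancRNAs were thus higher after EE, and from ME to LE the *GAPDH* lancRNA was 2.03-fold higher again (1.02) while the *ADH* lancRNA differed by 0.31.

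Neither sense transfrag was higher after EE with the deposited scaling. The *ADH* sense transfrag26945 was lower in ME by a log2 change of -1.95 and in LE by -1.34, 3.88-fold and 2.54-fold, with counting SEs of 0.0062 and 0.0057. The *GAPDH* sense transfrag29060 had log2 changes of -0.53 and -0.23 (counting SE 0.013 and 0.012) as deposited, but of 0.74 and 0.50 when the libraries were scaled by mapped reads, so its direction depends on the scaling. Between ME and LE the *ADH* mRNA was higher by 0.61 and the *GAPDH* mRNA by 0.30. The *ADH* mRNA was therefore lowest in ME, as was the *GAPDH* mRNA with the deposited scaling.

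Past a 2-fold limit, 2 of the 4 transfrags were higher in ME than in EE and 1 was lower, where 26.7% of all transfrags were higher and 36.9% lower by that much. In LE against EE, 2 of the 4 were again higher and 1 lower, against 27% and 42.7% of all transfrags. In LE against ME, 1 of the 4 was higher, against 5.23% of all transfrags. Within their classes, 34.3% of lancRNAs were at least 2-fold higher in ME and 37.2% in LE, and 31% of mRNAs were at least 2-fold lower in ME and 37.2% in LE. Crossing the 2-fold limit was thus common among all transfrags. With a limit of 4-fold, 1 of the 4 was higher in ME and 2 were higher in LE (14.4% and 15.5% of all transfrags), and 0 were lower (15.7% and 21.1%). With a limit of 1.5-fold the counts of the locus against EE were those at 2-fold, where 32.8% and 31.9% of all transfrags were higher and 46.1% and 50.8% lower. Leaving out transfrags whose mean level was under 10, none of them in the locus, 44.4% and 47.6% were at least 2-fold higher and 20.4% and 22.7% lower. With mapped-reads scaling the *ADH* mRNA was lower by 0.68 and 0.61 on the log2 scale, under 2-fold.

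In size, the change of transfrag29061 lay near the top of its class. Of 3067 lancRNAs, 23 had a log2 change at least as high in ME and 21 in LE, itself included. For the *GAPDH* lancRNA transfrag26943 these numbers were 881 and 456. Among the 284 lancRNAs with a mean level of at least 100, whose medians were 1.17 and 1.68, they were 9 and 11 for the *ADH* lancRNA and 136 and 113 for the *GAPDH* lancRNA. A log2 change at least as low as that of the *ADH* mRNA was found in 575 of 5785 mRNAs in ME and in 1740 in LE, and in 124 and 177 of the 2097 mRNAs with a mean level of at least 100.

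Over all transfrags, the log2 changes in ME and LE had medians of -0.40 and -0.62, and these medians moved with the scaling. Relative to it, the *ADH* lancRNA was higher by 5.01 and 5.53, the *GAPDH* lancRNA by 1.70 and 2.95, and the *ADH* mRNA was at -1.55 and -0.72. The *GAPDH* mRNA was at -0.13 in ME and 0.39 in LE. Under the 3 other scalings, the change relative to the median of all transfrags ranged from 4.97 to 5.15 in ME for the *ADH* lancRNA, from 1.67 to 1.84 for the *GAPDH* lancRNA, from -1.58 to -1.41 for the *ADH* mRNA, and from -0.16 to 0.01 for the *GAPDH* mRNA. A scaling shifts all log2 changes by about the same amount, so these ranges are narrow by construction and are no check of the scaling. The *GAPDH* mRNA lay near the median of all transfrags in ME. Most transfrags are low, and the 2097 mRNAs with a mean level of at least 100 had medians of 1.16 and 1.53 with the deposited scaling, where 494 in ME and 445 in LE were at least as low as the *GAPDH* mRNA.

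In order to see whether the strands of a gene moved together, their changes were set side by side. At *ADH*, the antisense strand was higher and the sense strand lower in ME and LE than in EE, and the log2 changes of the strands lay 6.56 and 6.25 apart. This pattern, at least 2-fold lower sense with at least 2-fold higher antisense, was shown by 204 (8.59%) of the 2374 pairs of an mRNA and a lancRNA that overlapped on opposite strands in ME, and by 146 (6.15%) in LE. A distance between strands at least as wide was found in 4 pairs in ME and 6 in LE, the *ADH* pair included. A transfrag with several overlaps is counted in each of its pairs, so the pairs are not separate genes. Among the 768 pairs whose mRNA had a mean level of at least 1000, the pattern was shown by 145 (18.9%) in ME and 77 (10.0%) in LE. With mapped-reads scaling the sense change of *ADH* stayed under 2-fold, but the distance between strands does not depend on the scaling.

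At *GAPDH*, the antisense strand was at least 2-fold higher while the sense strand stayed under a 2-fold change. The log2 changes of the strands lay 1.83 apart in ME and 2.55 in LE. This pattern was shown by 309 (13%) of 2374 pairs in ME and 366 (15.4%) in LE, and 532 and 312 pairs had strands at least as far apart. The changes of the *GAPDH* pair were thus frequent among pairs, and the *ADH* pair lay at the edge of them.

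**Figure D4:**
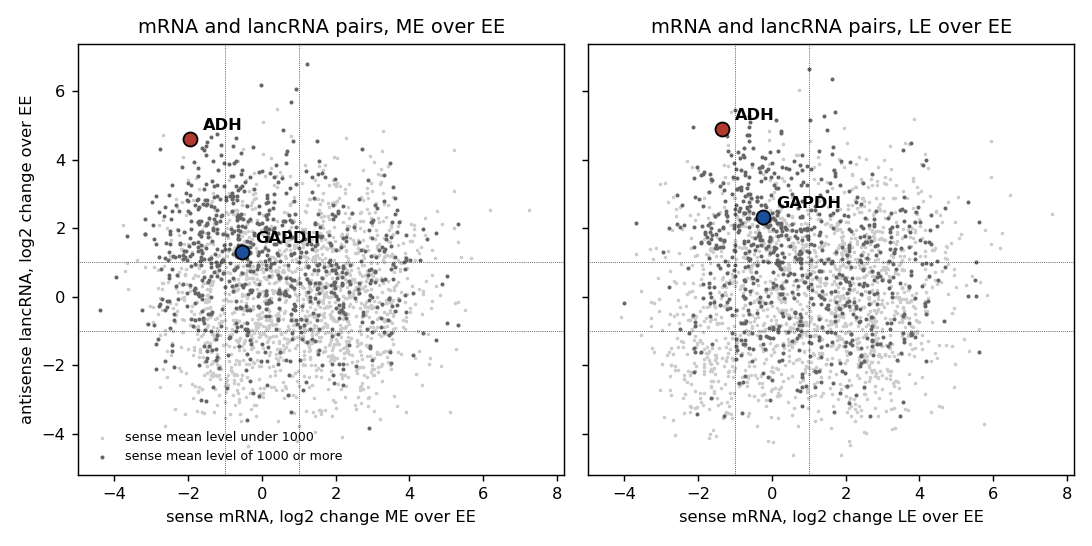
Log2 change of the antisense lancRNA against log2 change of the sense mRNA for all 2374 overlapping pairs, ME over EE and LE over EE with the deposited scaling; each point is 1 pair, dark where the mRNA has a mean level of at least 1000, and dotted lines mark 2-fold. The *ADH* pair lies at the upper left (-1.95 and 4.60 in ME, -1.34 and 4.91 in LE) and the *GAPDH* pair among the other points (-0.53 and 1.30, -0.23 and 2.32); with mapped-reads scaling the sense change of *GAPDH* is above 0.

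The ratios of the strands within a growth phase ordered the genes the other way round. In EE, ME and LE, the antisense level of a pair had a median of 4.12%, 3.17% and 2.36% of the sense level, and exceeded the sense level in 10.7%, 7.81% and 7.99% of pairs. As high a ratio as that of *GAPDH* was found in 427, 125 and 113 pairs. Most of these had a low mRNA: among the 768 pairs whose mRNA had a mean level of at least 1000, the numbers were 12, 2 and 2, and in ME and LE *GAPDH* was 1 of 2 such pairs with more antisense than sense signal. For *ADH*, as high a ratio was found in 554 of these 768 pairs in EE, but in 13 in ME and 18 in LE. By level per transfrag, few of these pairs thus had as high a ratio as either gene in ME and LE. The limit of 1000 was chosen after the levels had been seen.

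Length changed these ratios, since transfrag26943 was shorter than the *GAPDH* mRNA and transfrag29061 longer than the *ADH* mRNA. Per kb, the antisense strand had 77.0%, 274% and 452% of the sense level at *GAPDH*, and 0.0747%, 7.07% and 5.72% at *ADH*. The strand that was higher stayed the same in each growth phase with either scale. As high a ratio per kb as that of *GAPDH* was found in 8, 2 and 2 of the 768 pairs, but one as high as that of *ADH* in 736, 247 and 223. The high place of the *ADH* ratio in ME and LE therefore holds per transfrag and not per kb.

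A small share of reads is placed on the wrong strand by any strand-specific protocol. Estimated as percentile 5 of the antisense to sense ratio opposite the 100 highest mRNAs of such pairs, this share was 0.0603%, 0.142% and 0.0541% of the opposite level in EE, ME and LE. For the *ADH* lancRNA in EE this came to a level of 72.3 of 228 and left 156, and its log2 changes were then 5.14 and 5.45. For the *GAPDH* lancRNA it came to 11.6 of 8730 in EE. Among the lancRNA levels of the locus, this estimate was thus large only beside that of the *ADH* lancRNA in EE.

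In order to describe read-through, each antisense transfrag was set beside the sense transfrag that followed it on the same strand. On the minus strand, the *ADH* lancRNA transfrag29061 was followed by the *GAPDH* mRNA after 63 bases. In EE, ME and LE, its level per kb was 0.602%, 21.2% and 21.3% of that of the *GAPDH* mRNA. Between EE and ME the log2 changes of these neighbours lay 5.13 apart, and between ME and LE 0.0078 apart. They thus differed sharply from EE to ME and moved almost equally from ME to LE.

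Over all 520 transfrags followed on the same strand within 63 bases, the median distance was 1.82 in ME against EE, 2.14 in LE against EE and 0.62 in LE against ME. Neighbours at least as far apart numbered 20, 38 and 519. Among the 48 neighbours with a mean level of at least 100 in both, a limit added after the levels had been seen, 2, 3 and 48 were at least as far apart. As a description of continuity, the level per kb of the *GAPDH* mRNA was 471% of that of the *ADH* lancRNA in ME and 469% in LE. These are means over whole transfrags, so the height of the signal on either side of the gap is not known. Whether reads of the *GAPDH* mRNA transfrag include transcripts that began in the *ADH* lancRNA was not tested, since levels per base were not analysed here.

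On the plus strand, the *GAPDH* lancRNA transfrag26943 was followed by the *ADH* mRNA after 2361 bases. Its level per kb was 9.57%, 91.3% and 121% of that of the *ADH* mRNA. Their log2 changes lay 3.25 apart in ME, 3.66 in LE and 0.41 from ME to LE. Medians over 12624 neighbours with a gap no larger were 1.59, 1.67 and 0.70. Of these, 634 had a mean level of at least 100 in both, the limit added after the levels had been seen. Among those 634, neighbours at least as far apart numbered 137, 93 and 254. Their median from ME to LE was 0.33, so the distance of 0.41 was below the median of all neighbours but above that of these. The lancRNA was thus above the level per kb of the downstream mRNA in LE, while a space of 2361 bases without a transfrag analysed here separated them.

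The outer edges of the locus were steep. On the plus strand, transfrag26941, an mRNA 666 bases before the *GAPDH* lancRNA, had 1.49%, 0.327% and 0.0957% of its level per kb. Its own log2 changes were -0.89 and -1.63, opposite in sign to those of the lancRNA. On the far side of *ADH*, transfrag26946, an mRNA 115 bases after the end of the *ADH* mRNA, had levels of 66.0, 241 and 289. It was lowest in EE, where the *ADH* mRNA was highest, and had 0.0685%, 0.970% and 0.763% of the level per kb of the *ADH* mRNA.

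The minus strand was low on either side as well. The lancRNA transfrag29062 lay 164 bases before the start of the *ADH* lancRNA and had levels of 8.87, 2.89 and 6.51, with log2 changes of -1.34 and -0.39. Its level per kb was 45.3% of that of the *ADH* lancRNA in EE, but 0.605% in ME and 1.10% in LE. Past the 3′ end of the *GAPDH* mRNA, the next minus-strand transfrag was transfrag29055, a short antisense ncRNA (sancRNA) 1550 bases on. It was listed at 0 in EE and had levels of 4.79 in ME and 2.37 in LE, which per kb were 0.307% and 0.123% of the *GAPDH* mRNA. The higher antisense signal of *ADH* after EE was therefore not preceded on its strand by a transfrag of similar level.

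From 515899 to 529518 of the contig, 19 transfrags were found, 15 of them flanking the locus. The 8 flanking transfrags on the plus strand were all mRNAs, and the 7 on the minus strand were 4 lancRNAs and 3 sancRNAs. The 4 transfrags of the locus held 99.3%, 97.9% and 98.3% of the summed level of these 19 in EE, ME and LE. Of the flanking transfrags, 3 exceeded a level of 100 in at least 1 growth phase (transfrag26939, transfrag26941 and transfrag26946), and 6 were at or under the level of 3 reads in at least 1 phase. In the order of the growth phases, that level was 4.00, 1.09 and 1.19.

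The highest flanking transfrag was the mRNA transfrag26939 (517643 to 518153), at 646, 1008 and 1556. On the log2 scale it was 0.64 higher in ME and 1.27 higher in LE than in EE, and transfrag26946 was 1.85 and 2.12 higher, while transfrag26941 between transfrag26939 and the locus was lower. In ME against EE, 3 flanking transfrags were at least 2-fold higher, 3 lower and 9 neither, and in LE 5 were higher, 5 lower and 5 neither. Of all transfrags, 26.7% were higher and 36.9% lower in ME, and 27% and 42.7% in LE, so these counts are not a result about the flanking transfrags.

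Among the low flanking transfrags, a few reads decide a change. The lancRNA transfrag29052 (517466 to 517853), opposite transfrag26939, had levels of 1.33, 34.0 and 43.6. With 1 read in EE, its ratio of ME over EE was 25.6 with a 95% counting interval (exact binomial) from 6.49 to 1472, and that of LE over EE was 32.8, from 8.31 to 1877. The sancRNA transfrag29050 (516139 to 516290) went the other way, with levels of 11.8, 0.27 and 0.29, and its ratios of EE over ME and over LE were 43.6 (5.82 to 1645) and 40.6 (5.34 to 1512). The mRNA transfrag26940 next to transfrag26939 had levels of 32.7, 43.4 and 11.6. The levels of the flanking transfrags not named above lay between 0.54 and 23.7.

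As a share of all levels, the locus was highest in EE, and its make-up differed between growth phases. The levels of the 4 transfrags summed to 148068, 71271 and 114095 in EE, ME and LE, which were 3.63%, 2.10% and 2.45% of the summed level of all transfrags. The antisense transfrags made up 6.05%, 38.0% and 44.3% of the locus. The plus strand, with *ADH* sense and *GAPDH* antisense, summed to 128638, 52415 and 90881, and the minus strand to 19431, 18856 and 23214. The minus strand, with *GAPDH* sense and *ADH* antisense, was thus the steadier of both strands with the deposited scaling.

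For comparison, a list of 14 genes of glycolysis and ethanol metabolism was taken by closest homolog, from the hexokinases to the aldehyde dehydrogenases. Only a part of the gene annotation was at hand, so the list does not cover the whole pathway. Of their sense transfrags, 8 were at least 2-fold higher, 3 lower and 3 neither in ME against EE (median 1.11), and 7 were higher, 2 lower and 5 neither in LE (median 0.98). Where several antisense transfrags lay opposite a gene, only the highest was taken, which leaves out others such as transfrag04759 opposite transfrag06946 (-1.02 and -1.47). Of the 11 genes with an antisense transfrag, 7 of those taken were higher, 0 lower and 4 neither in ME (median 1.46), and 7 were higher, 2 lower and 2 neither in LE (median 1.57). Medians over all lancRNAs were 0.24 and 0.25, and those over the 284 lancRNAs with a mean level of at least 100 were 1.17 and 1.68. Among the lower sense transfrags, transfrag12839 had levels of 6.75, 0.36 and 1.19 and was at or under the level of 3 reads in 2 phases. The antisense transfrags taken include the sancRNAs transfrag11560 and transfrag05643, each at or under that level in at least 1 phase. The counts of the list are read beside the shares of all transfrags given above and say nothing particular to the list.

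A second *GAPDH* homolog (closest to G3P3_KLUMA) lay on contig-104. As the gene annotation was held only in part, other *GAPDH* homologs may be missing from the shares and sums given here. Its sense transfrag08631 was the higher of both *GAPDH* mRNAs, at 165700, 103920 and 130727. Its log2 changes were -0.67 and -0.34 as deposited, beside -0.53 and -0.23 for transfrag29060; both signs are those of the deposited scaling. Its antisense transfrag07726 was at 114.2, 818 and 1549 and had log2 changes of 2.83 and 3.75. The *GAPDH* gene of the locus held 10.4%, 11.3% and 11.1% of the sense level of both homologs, but 98.7%, 96.3% and 96.6% of the antisense level. The authors placed reads that match several sites at random, and how the level divides between the homologs is therefore uncertain. Summed over both, the antisense level was 8844, 22305 and 45164 (log2 changes of 1.33 and 2.35) and the sense level 184902, 117212 and 147065 (-0.66 and -0.33 as deposited).

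Of the alcohol dehydrogenase homologs of the list, the one closest to ADH3_KLULA (contig-91, 38588 to 40102) went the other way from the *ADH* mRNA of the locus. Its sense transfrag01196 had levels of 4146, 12788 and 27399, log2 changes of 1.62 and 2.72, while transfrag26945 had -1.95 and -1.34. Its antisense transfrag01622 had levels of 15.0, 196 and 189 (3.63 and 3.57). For the homolog closest to ADH6_YEAST, on the same contig, the sense transfrag01275 was at 58.4, 216 and 229 (1.87 and 1.95) and the antisense transfrag01708 at 28.7, 80.7 and 87.1 (1.46 and 1.57). The antisense strand was thus higher after EE at each of these genes, while the sense strand was lower at the locus and higher at the homologs. Pyruvate decarboxylase (closest to PDC1_KLUMA), which supplies the acetaldehyde that ADH reduces, had a sense transfrag10819 at 9537, 21290 and 21405 (1.16 and 1.17) and an antisense transfrag12574 at 24.4, 80.5 and 145 (1.68 and 2.53).

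For each transfrag of the locus, the 2 transfrags of its class with the most similar course over the 3 growth phases were sought where the mean level was at least 100, by the Euclidean distance between log2 levels centred on their own mean. For the *ADH* mRNA these were transfrag31716 (distance 0.016) and transfrag01595 (0.023) of 2096 mRNAs. For the *GAPDH* mRNA they were transfrag10224 (0.016) and transfrag02446 (0.057). For the *GAPDH* lancRNA the closest of 283 were transfrag24462 (0.086) and transfrag00371 (0.114). For the *ADH* lancRNA they were transfrag23805 (0.081), with levels of 28.7, 684 and 914, and transfrag16459 (0.286). None of these 8 transfrags lay on contig-114. The lancRNAs with a similar course were far lower than those of the locus, and 3 values fix a course only loosely.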

How the data were processed

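Strand-specific libraries of rRNA-depleted *K. marxianus* RNA, 2 per growth phase and 6 in all, were grouped by their labels. After trimming, the authors mapped reads to assembly contigs with CLC genomics workbench (non-specific matches at random), joined reads of all phases into transfrags, merged close ones, divided them at gene boundaries and discarded low levels. CASAVA 1.4 and DESeq stand in the submitters' processing notes. The authors deposited a normalized signal of reads, scaled by DESeq size factors, with 1 mean over 2 libraries per transfrag and growth phase.

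The low levels were sums of whole multiples of 2 steps per phase (100%, 99.4% and 100% of those in EE, ME and LE, where chance gives 12.9%, 31.2% and 26.4%), which gave the size factors (0.707 and 0.375, 1.85 and 1.37, 1.70 and 1.26) and the counting error. The search was tested on simulated data and found the steps in 5 of 5 columns per phase.

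Changes are log2 of the level plus 1, and a call is at least 2-fold. With 1 value per phase, no test was made. Pairs overlap by at least 1 bp. The transfrags of the locus and the lists were chosen with earlier results of these data known, and limits on the mean level of pairs and neighbours after seeing the data. Named are the 4 transfrags of the locus, the flanking ones, the pathway genes and the 2 nearest courses of each. Alternatives were other pseudocounts (0.5 and 10), scalings (mapped reads from the study's read table), folds (1.5 and 4), windows, overlaps, gaps and a correction for wrong-strand reads. Gene names of flanking transfrags were not used here. Scripts ran in Python 3.11.15 with pandas 2.3.3, NumPy 2.4.6 and Matplotlib 3.10.9.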

Additional observations from a re-analysis of the deposited data

How the results depend on the processing

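Pseudocounts of 0.5 and 10 kept all 6 changes of at least 2-fold among the 8 changes of the locus against EE, and so did every setting but mapped-reads scaling, which kept 4. With scaling to the summed level, to that without the 100 highest transfrags, and to mapped reads, the log2 change in ME was -0.27, -0.72 and 0.74 for the *GAPDH* mRNA, 1.56, 1.11 and 2.57 for the *GAPDH* lancRNA, and -1.69, -2.14 and -0.68 for the *ADH* mRNA. In LE these changes were -0.42, -0.85 and 0.50, then 2.13, 1.70 and 3.05, then -1.53, -1.96 and -0.61. For the *ADH* lancRNA they moved to 4.87 (summed level) and 5.87 (mapped reads) in ME and to 4.29 (without the 100 highest) and 5.64 (mapped reads) in LE. With wrong-strand reads subtracted they were 5.14 and 5.45, and its EE level was 0.130% of the sense level. These shifts follow from the factors themselves. Per kb, the antisense level in EE, ME and LE was 77.0%, 274% and 452% of the sense level at *GAPDH* and 0.0747%, 7.07% and 5.72% at *ADH*.

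With a limit of 4-fold, 1 transfrag of the locus was higher and 0 lower in ME, and 0 lower in LE. Of the 15 flanking transfrags, 5 were higher and 6 lower in ME and 8 lower in LE with a limit of 1.5-fold. With 4-fold, ME had 1 lower, and LE had 2 higher and 1 lower. With a mean level of at least 10, LE had 3 higher and 2 lower, and ME 0 lower. In the wider window (509493 to 535916), 5 of 31 flanking transfrags were at least 2-fold higher and 9 lower in ME, and 12 were lower in LE. Of all transfrags, 26.7% were higher and 36.9% lower by that much in ME, and 42.7% were lower in LE. The shares of all transfrags at the other limits are given above, and these counts are not a result about the flanking transfrags. Of the values of the main results, 46 moved by more than counting error or 1.5-fold in a count and 42 did not.

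No paired analysis was possible because the deposited levels hold 1 mean per growth phase. Leaving out single libraries was not run for the same reason. Depth limits the flanking transfrags and the *ADH* lancRNA in EE most.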

Other observations

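With a mean level of at least 1000 in place of 100, 23 lancRNAs other than the one compared were left, and the course most like that of the *ADH* lancRNA was found in transfrag31045 (contig-116, 463 to 1652), with levels of 1527, 56956 and 73999, log2 changes of 5.22 and 5.60 and a distance of 0.536. The next was transfrag16722 (contig-110, 279115 to 279627), with levels of 1080, 36636 and 55113. Both were higher than the *ADH* lancRNA in each growth phase.

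In the wider window from 509493 to 535916, the 3 mRNAs on the minus strand to the right of the locus had levels of at least 100 in each growth phase. The highest was transfrag29079 (534510 to 535916), with levels of 3978, 2866 and 5801. Opposite it, the lancRNA transfrag26960 (534510 to 535614) had levels of 9.50, 88.5 and 82.7.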
